A study of Homo sapiens with 10 samples.

Results

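Immediate early genes are switched on within minutes of a growth factor or stress signal, from transcription factors that are already present in the cell. FOS, JUN, JUNB and JUND encode bZIP proteins that pair through a leucine zipper to form the transcription factor AP-1. EGR1 encodes a zinc finger transcription factor, IER2 a nuclear protein induced early after serum, and DUSP1 a phosphatase that removes phosphate from MAP kinases and so damps the signal. MYC and MYCN encode related basic helix-loop-helix proteins that bind DNA with MAX and drive growth genes; MYC is itself an early response gene, and MYCN is strongly expressed in pluripotent stem cells. The SRF and ELK proteins act on serum response elements of such genes, and the CREB and ATF proteins on cAMP response elements.

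The 9 genes on the list were looked up by symbol in a table of 14785 rows, of which 13808 are genes. A row was found for 8 of them; JUNB was not analysed here. The choice used names and no measured value, although the list was proposed with earlier results of these data in view.

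RNA-seq was performed on H1, an established human embryonic stem cell line labelled as wild type and grown in mTeSR1 on Matrigel. All cells received a short hairpin RNA (shRNA) by virus and were then selected with puromycin, the controls included. The hairpins were directed at SMARCA4 (an ATPase of the BAF chromatin remodelling complex), MAFK (a small MAF bZIP protein), E2F6 (a repressive E2F) or KDM1A (the histone demethylase LSD1), and at luciferase, LUC, in the control group. Each of the 5 groups had 2 libraries, described as biological duplicates, and no label says whether they came from separate transductions, so the p-values measure the spread between these libraries only. No serum pulse or other acute stimulus is given in the labels, so the values are levels in growing cultures.

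The values are normalized whole numbers without a stated depth. The totals lay between 22836548 and 22855295, and the median row was 594 in each library, so the depth behind a low value is unknown. Of the 4 targets, SMARCA4 was measured at 1100 and 985 in shSMARCA4 against 8086 and 8374 in shLUC, and it alone passed the test in its own knockdown (limma adjusted p = 8.6e-05). KDM1A was at 3290 and 1879 in shKDM1A against 6344 and 5925, E2F6 at 336 and 304 in shE2F6 against 491 and 553, and MAFK at 82 and 216 in shMAFK against 212 and 288. The MAFK libraries therefore overlapped the controls for their own target. The spread between the 2 libraries of a group was widest in shKDM1A, where the SD pooled over all rows was 0.53 on the log2 scale against 0.26 to 0.33 in the other groups. Of 12 pluripotency markers 11 had a row, and 0 of 11 passed in each knockdown. A limma unadjusted p under 0.05 was reached by 4 in shSMARCA4 (1 higher, 3 lower), 1 in shE2F6, 0 in shMAFK and 0 in shKDM1A. Over all rows that share was 16.3%, 5.09%, 8.77% and 11.5% in the same order. In shKDM1A POU5F1 was at 148866 in the first library and 35710 in the second, against 35710 in both controls. Most ranks hold the same value in every library, so equal values can be shared rank values rather than close agreement.

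The promoter windows of 7 members were taken from RefSeq (GRCh38.p14, 250 bases before to 50 bases after the start); the table held no window for MYC. They were searched on both strands for response elements, because these are the sequences through which the family is known to be regulated. The CArG box, the core of the serum response element, was found in 1 member and in 1.29% of 35116 promoters. TGACNTCA, a pattern that includes the cAMP response element core TGACGTCA, was found in 3 members and in 7.72% of promoters. The AP-1 core TGANTCA was found in 0 members and in 7.71%. The E-box CACGTG was found in 1 member (7.26% of promoters), the E2F core TTTNNCGC in 2 (6.89%), the antioxidant element core bound by small MAF dimers, TGACNNNGC, in 2 (13.3%) and TATAAA in 2 (11.5%). TGACNNNGC can share its first letters with TGACNTCA. Stretches of 5 windows are shown with the elements in capitals, 5′ to 3′ on the strand of the gene. They show that EGR1 carries a pair of CArG boxes, and that the E2F core of MYCN reads on both strands in an overlapping pair. JUN, JUND and DUSP1 each carry TGACNTCA, as TGACATCA in JUN and as TGACGTCA in JUND and DUSP1.
EGR1: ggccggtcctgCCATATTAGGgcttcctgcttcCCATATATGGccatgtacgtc
JUN: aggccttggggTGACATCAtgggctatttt
JUND: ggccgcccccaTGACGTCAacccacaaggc
DUSP1: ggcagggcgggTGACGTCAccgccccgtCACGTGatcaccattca
MYCN: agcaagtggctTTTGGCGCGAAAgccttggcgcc

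The EGR1 stretch is chr5:138465363-138465416 on the plus strand, from 116 to 63 bases before the start. The JUN stretch is chr1:58784096-58784125 on the minus strand, from 78 to 49 bases before the RefSeq start. The JUND stretch is chr19:18281804-18281833 (minus strand, 211 to 182 bases before the start) and the DUSP1 stretch chr5:172771287-172771331 (minus strand, 136 to 92 bases before it), where an E-box follows the cAMP element. The MYCN stretch is chr2:15940363-15940396 on the plus strand, from 187 to 154 bases before the start. In the FOS window only TATAAA was found, 33 bases before the start, and in the IER2 window none of the motifs. No window reaches more than 250 bases before the start, so elements farther upstream, of FOS or any other member, were not searched. These matches describe the letters of the windows; no binding was measured here.

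In control cells the members differed widely in level. To set genes side by side, the values were divided by the merged exon length in GENCODE release 29. Whether the values scale with that length is not known, because their normalization is not given. IER2 stood at 1196 and 1474 per kilobase in the 2 shLUC libraries. MYCN followed at 958 and 1123, JUND at 892 and 895, and MYC at 417 and 425 per kilobase. The other members were lower, with DUSP1 at 68.8 and 48.5 per kilobase, JUN at 54 and 53.1, EGR1 at 44.9 and 58 and FOS at 18.5 and 24.1. The libraries of neighbours in this order did not overlap from IER2 down to MYC, whereas DUSP1, JUN and EGR1 overlapped and had no order. Undivided, the order from IER2 down to MYC was the same. The undivided shLUC means of DUSP1, JUN and EGR1 were 118.5, 189.5 and 161.5. Among FOS, JUN and JUND, JUND had the highest level in control cells, and MYCN was above MYC.

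**Figure D1:**
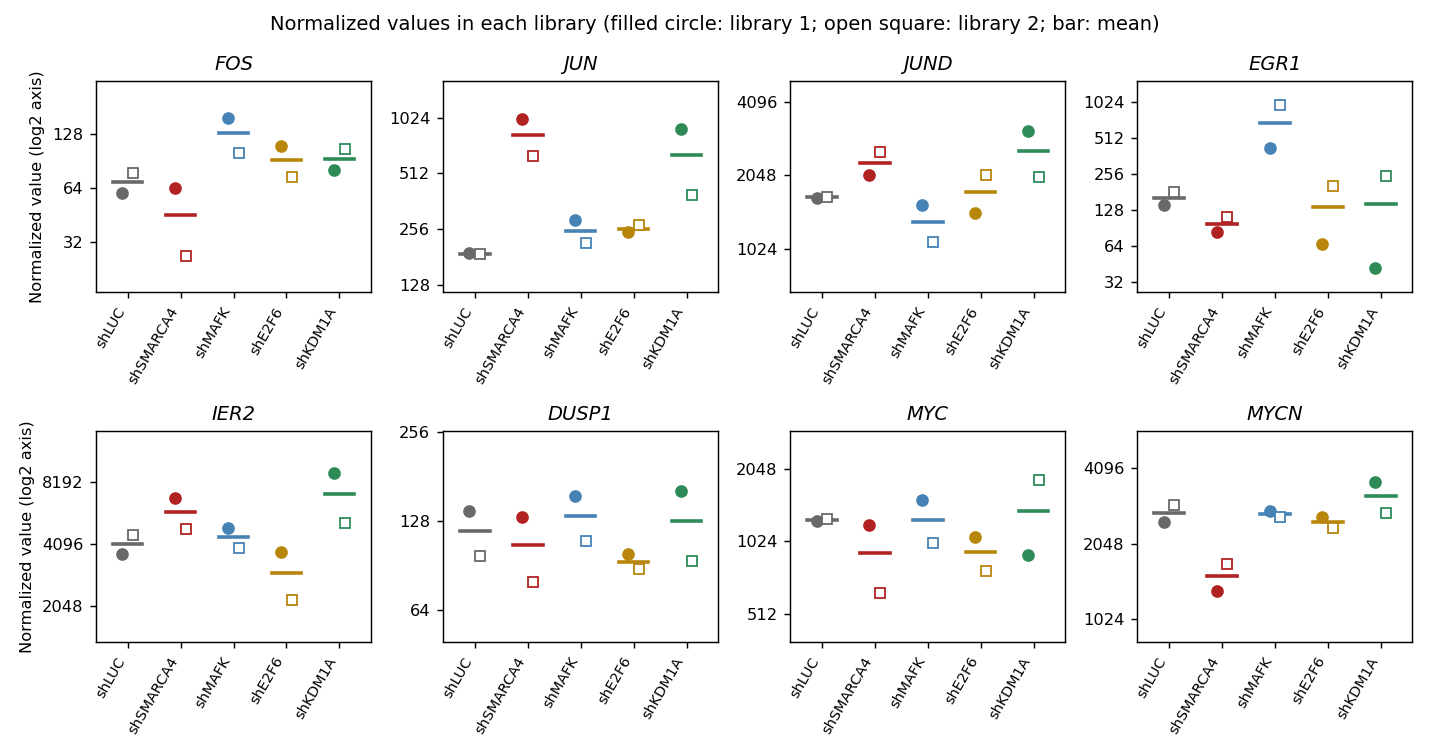
Normalized value (log2 axis) of each of the 8 genes in the 10 libraries, with library 1 as a filled circle, library 2 as an open square and the group mean as a bar. JUN is highest in shSMARCA4 (1007 and 639) and shKDM1A (891 and 392), MYCN is lowest in shSMARCA4 (1330 and 1701), and EGR1 is highest in shMAFK (419 and 960).

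JUN (ENSG00000177606, chr1:58780788-58784327, minus strand, a gene of 1 exon) encodes the c-Jun subunit of AP-1. It was measured at 191 and 188 in shLUC, 1007 and 639 in shSMARCA4, 891 and 392 in shKDM1A, 288 and 216 in shMAFK, and 247 and 269 in shE2F6. Every knockdown library lay above both controls, and the shSMARCA4 and shKDM1A libraries lay above all others. The means were 189.5 ± 2.12 in shLUC, 823 ± 260.2 in shSMARCA4 and 641.5 ± 352.8 in shKDM1A (SD, n = 2 each).

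JUN rose in shSMARCA4 by 2.08 on the log2 scale (SE 0.36, 95% interval 1.27 to 2.88), which is 4.22-fold on the log2(value + 1) scale, with a limma adjusted p of 0.0147. It ranked 49 by size among all rows that were higher in shSMARCA4. In shKDM1A its log2 change was 1.64 (SE 0.36, interval 0.83 to 2.44), with an unadjusted p of 0.0013 and a limma adjusted p of 0.188, so it did not pass. The value in shKDM1A was 2.23 without the second shKDM1A library (limma adjusted p = 0.002) and 1.04 without the first (limma adjusted p = 0.406). Without the second library, 21.9% of all rows passed in shKDM1A, so the calls in that fit rest on 1 shKDM1A library. The changes in shMAFK (0.39) and shE2F6 (0.44) did not pass, with limma adjusted p of 0.879 and 1.

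The knockdowns differed from each other for JUN. The moderated F-test over the 4 knockdowns gave a limma adjusted p of 0.0382, a test that 6.64% of all rows passed. JUN was higher in shSMARCA4 than in shMAFK by 1.68 on the log2 scale (limma adjusted p = 0.0234) and than in shE2F6 by 1.63 (limma adjusted p = 0.0423). Between shSMARCA4 and shKDM1A the difference was 0.44, with an interval of -0.37 to 1.25 that includes 0. In order of mean level, shSMARCA4 and shKDM1A came first and did not differ beyond their spread. The 3 groups with lower means, shE2F6, shMAFK and shLUC, were at 258 ± 15.6, 252 ± 50.9 and 189.5. From these shKDM1A did not differ past the threshold either, with limma adjusted p of 0.207, 0.263 and 0.188 in that order.

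The call for JUN in shSMARCA4 was lost without the first shLUC library, without the second and without the first shSMARCA4 library. Its log2 change was 2.09, 2.06 and 1.75 in those fits, and 2.40 without the second shSMARCA4 library. Alternatives that change only the spread, the filter or the libraries of other groups cannot move this log2 change. Markers of mesoderm and endoderm were examined beside this result. Of 11 such markers 4 had a row (MIXL1, EOMES, FOXA2 and CER1), and their summed value was 82 and 71 in shLUC and 7385 and 1198 in shSMARCA4. All 4 were higher in both shSMARCA4 libraries than in both controls, a separation that 51% of all rows showed in 1 direction or the other. EOMES went from 14 and 34 to 2430 and 724, and FOXA2 from 4 and 2 to 792 and 170. CER1 went from 44 and 21 to 2354 and 172, and none of these passed. MIXL1 passed, going from 20 and 14 to 1809 and 132 (4.79 on the log2 scale, limma adjusted p = 0.0365). The other 7 markers were not analysed here. MIXL1 passed in 12 of 20 alternatives; the call was lost with quantile normalization, without any 1 library of shLUC, shE2F6 or shMAFK and without the first shSMARCA4 library, where the log2 change was 2.91, and the change ran up to 6.67. In shKDM1A, where JUN was at 891 and 392 and did not pass, the same markers summed to 80 and 34. The part of cells with these markers in the JUN value was not tested in either knockdown. In bulk RNA, more cells that express a gene and more RNA per cell cannot be told apart.

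FOS (ENSG00000170345, chr14:75278774-75282230, plus strand), the partner that makes the classic AP-1 dimer, was at 60 and 78 in shLUC, 64 and 27 in shSMARCA4, 81 and 106 in shKDM1A, 158 and 101 in shMAFK, and 110 and 74 in shE2F6. Both shMAFK and both shKDM1A libraries lay above the controls, and shSMARCA4 and shE2F6 overlapped them. Its log2 changes were -0.70 (SE 0.44) in shSMARCA4, 0.43 in shKDM1A, 0.88 in shMAFK and 0.39 in shE2F6. None passed, with limma adjusted p of 0.507, 0.68, 0.647 and 1. The value in shSMARCA4 was -0.09 without the second shSMARCA4 library and -1.31 without the first.

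The ratio of JUN to FOS within a library, which is not adjusted for length and is read only between libraries, was 3.18 and 2.41 in shLUC and 15.7 and 23.7 in shSMARCA4. It was 11 and 3.70 in shKDM1A, 1.82 and 2.14 in shMAFK, and 2.25 and 3.64 in shE2F6. Both shSMARCA4 libraries were thus above the other 8 for this ratio.

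JUND (ENSG00000130522, chr19:18279760-18281622, minus strand, 1 exon) encodes the AP-1 subunit that most resting cells express. It was at 1662 and 1668 in shLUC, 2061 and 2545 in shSMARCA4, 3110 and 2022 in shKDM1A, 1554 and 1092 in shMAFK, and 1436 and 2061 in shE2F6. The shSMARCA4 and shKDM1A libraries lay above both controls and the shMAFK libraries below them. The log2 changes of 0.46, 0.59 and -0.35 (SE 0.27 each) did not pass, with limma adjusted p of 0.471, 0.446 and 0.834, and that in shE2F6 was 0.05. The ratio of JUN to JUND was 0.115 and 0.113 in shLUC, 0.489 and 0.251 in shSMARCA4, and 0.286 and 0.194 in shKDM1A. It was 0.185 and 0.198 in shMAFK, and 0.172 and 0.131 in shE2F6. This ratio was thus above both controls in every knockdown library. The shKDM1A libraries overlapped those of shSMARCA4 and those of shMAFK.

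EGR1 (ENSG00000120738, chr5:138465490-138469315, plus strand) was at 141 and 182 in shLUC, 84 and 112 in shSMARCA4, 42 and 244 in shKDM1A, 419 and 960 in shMAFK, and 66 and 204 in shE2F6. The shMAFK libraries were the 2 highest of the 10, and the shSMARCA4 libraries lay below both controls. Within groups the libraries differed by up to 5.81-fold, in shKDM1A.

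The log2 change of EGR1 in shMAFK was 1.98 (SE 0.78, 95% interval 0.21 to 3.74), which placed it at rank 34 by size among all rows higher in shMAFK. Its unadjusted p was 0.0318 and its limma adjusted p 0.514, so it did not pass. The value was 1.38 without the second shMAFK library and 2.58 without the first. In the other knockdowns the log2 changes were -0.72, -0.46 and -0.65, with limma adjusted p of 0.754 in shSMARCA4, 1 in shE2F6 and 0.725 in shKDM1A. The F-test among the knockdowns gave a limma adjusted p of 0.13, so no difference in EGR1 between hairpins was established. The target MAFK overlapped the controls in the shMAFK libraries, and EGR1 was the higher (960) in the library with MAFK at 216. EGR1 was also higher in the library numbered 2 in 5 of 5 groups. The relation of EGR1 to the level of MAFK was not tested.

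IER2 (ENSG00000160888, chr19:13150415-13154908, plus strand), the member with the highest level per kilobase in shLUC, was at 3674 and 4527 in shLUC, 6829 and 4808 in shSMARCA4, 9058 and 5174 in shKDM1A, 4907 and 3929 in shMAFK, and 3740 and 2191 in shE2F6. Both shSMARCA4 and both shKDM1A libraries lay above the controls. The log2 change in shKDM1A was 0.75 (SE 0.33, unadjusted p = 0.0496, limma adjusted p = 0.435) and that in shSMARCA4 0.49 (limma adjusted p = 0.543). In shMAFK it was 0.11 and in shE2F6 -0.51, and neither passed. The value in shSMARCA4 was 0.74 without the second shSMARCA4 library and 0.24 without the first. Without the second shKDM1A library IER2 and JUND joined JUN past the threshold in shKDM1A, at 1.15 (limma adjusted p = 0.0402) and 0.90 (limma adjusted p = 0.0469).

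DUSP1 (ENSG00000120129, chr5:172768090-172771195, minus strand), the MAP kinase phosphatase, was at 139 and 98 in shLUC, 132 and 80 in shSMARCA4, 162 and 94 in shKDM1A, 156 and 110 in shMAFK, and 99 and 88 in shE2F6. The libraries of every knockdown overlapped the controls. Its log2 changes lay between -0.32 and 0.17, with limma adjusted p of 0.893 or more. The intervals were wide: in shSMARCA4 the interval ran from -0.99 to 0.63, so a change of that size was not detectable.

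MYC (ENSG00000136997, chr8:127735434-127741434, plus strand) was at 1250 and 1275 in shLUC, 1200 and 626 in shSMARCA4, 897 and 1847 in shKDM1A, 1518 and 1006 in shMAFK, and 1071 and 773 in shE2F6. The shSMARCA4 and shE2F6 libraries lay below both controls, and the shMAFK and shKDM1A libraries fell on either side of them. The log2 changes did not pass: -0.54 in shSMARCA4 (SE 0.40, limma adjusted p = 0.586), 0.03 in shKDM1A (0.983), -0.47 in shE2F6 (1) and -0.03 in shMAFK (1). The value in shSMARCA4 was -0.07 without the second shSMARCA4 library and -1.01 without the first. The F-test among the knockdowns gave a limma adjusted p of 0.576.

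MYCN (ENSG00000134323, chr2:15940564-15947007, plus strand) was at 2493 and 2922 in shLUC, 1330 and 1701 in shSMARCA4, 3604 and 2712 in shKDM1A, 2757 and 2606 in shMAFK, and 2618 and 2354 in shE2F6. The 2 shSMARCA4 libraries were the lowest of the 10, with a gap from 1701 to 2354. The means were 2707.5 ± 303.3 in shLUC and 1515.5 ± 262.3 in shSMARCA4 (SD, n = 2 each). MYCN fell in shSMARCA4 by 0.84 on the log2 scale (SE 0.20, 95% interval -1.28 to -0.40, limma adjusted p = 0.0465), which left 56% of the control mean.

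MYCN also differed among the knockdowns (F-test, limma adjusted p = 0.0402). It was lower in shSMARCA4 than in shKDM1A by a log2 difference of -1.06 (limma adjusted p = 0.0155) and than in shMAFK by -0.83 (limma adjusted p = 0.0327). Against shE2F6 the difference was -0.72 and did not pass (limma adjusted p = 0.0878). No other pair of groups differed past the threshold, and the changes against shLUC were 0.21 in shKDM1A, -0.01 in shMAFK and -0.12 in shE2F6. The fall in shSMARCA4 lay near the threshold. It did not pass in 10 of 20 alternatives, among them the fit without a mean-variance trend (limma adjusted p = 0.0592), the fit with the replicate number as a block (limma adjusted p = 0.0596) and the fits without any 1 library of shLUC, shSMARCA4, shMAFK or shE2F6, of which the highest was 0.333. The log2 change ran from -1.02 to -0.67 on leaving out a library of shLUC or shSMARCA4. Alternatives that change only the spread, the filter or the libraries of other groups cannot move it. MYCNOS, a gene on the opposite strand, shares 1686 bases with MYCN, and AC022217.3 and AC011446.2 overlap DUSP1 and IER2 on the opposite strand. Whether strand was used in counting is not given in the sources used here, so reads of these pairs cannot be told apart.

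The ratio of MYC to MYCN within a library, read only between libraries, was 0.501 and 0.436 in shLUC, 0.902 and 0.368 in shSMARCA4, 0.249 and 0.681 in shKDM1A, 0.551 and 0.386 in shMAFK, and 0.409 and 0.328 in shE2F6. The libraries of shSMARCA4 and of shKDM1A lay on both sides of the controls, so the balance of MYC and MYCN did not separate these groups.

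**Figure D2:**
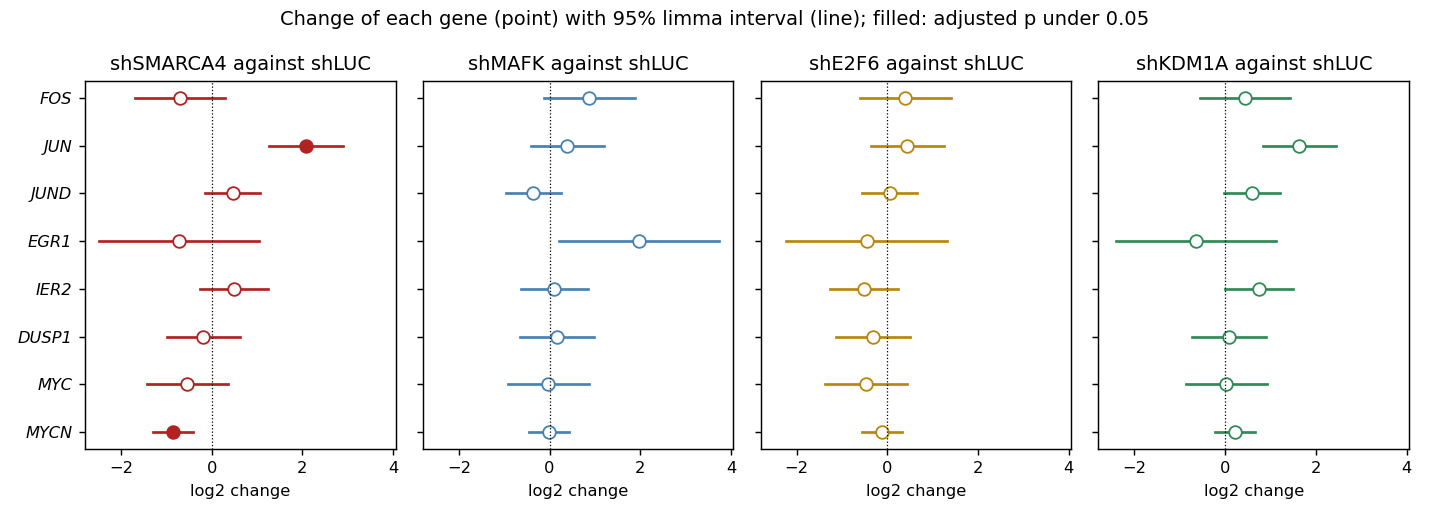
Log2 change against shLUC (horizontal axis) of each gene in each knockdown, with the 95% interval of the limma fit as a line and filled points for a limma adjusted p under 0.05. JUN (2.08) and MYCN (-0.84) in shSMARCA4 are the 2 filled points, and the widest intervals are those of EGR1.

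Over the 8 genes together, 2 passed in shSMARCA4 (JUN higher, MYCN lower) and 0 in each other knockdown. Over all rows the share that passed was 4.18% in shSMARCA4, 0.0271% in shKDM1A, 0.0135% in shMAFK and 0% in shE2F6, and the values in the next sentences keep this order. An unadjusted p under 0.05 was reached by 2, 2, 1 and 0 of 8 genes, and by 16.3%, 11.5%, 8.77% and 5.09% of all rows. The libraries did not overlap those of shLUC for 6 (3 higher, 3 lower), 4 (all higher), 4 (3 higher, 1 lower) and 2 (1 each way) of 8 genes. Of all rows, 51%, 38.8%, 49.1% and 40.7% did not overlap, so such a pattern was common across the table. The median log2 change of the 8 genes was -0.36, 0.32, 0.14 and -0.22, beside medians of 0.01, -0.02, -0.00 and -0.00 over all rows.

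Differences between knockdowns passed for JUN and MYCN in comparisons with shSMARCA4 alone. There 2 of 8 passed against shMAFK (7.76% of all rows), 1 against shE2F6 (3.55%) and 1 against shKDM1A (6.87%). Between shMAFK and shE2F6 (0.487% of all rows), shMAFK and shKDM1A (0.0406%) and shE2F6 and shKDM1A (0.129%) the count was 0 of 8. These differences depended on the fit: over 19 fits, the reported one included, the F-test passed for JUN in 10 and for MYCN in 9. The difference of JUN between shSMARCA4 and shMAFK passed in 16 of 20 fits and that to shE2F6 in 11, and the difference of MYCN passed in 17 of 19 fits against shKDM1A and in 12 of 20 against shMAFK. All comparisons with shLUC share its 2 libraries, so the knockdowns' changes are not independent of each other.

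Of 41 other immediate early genes 28 had a row. In shSMARCA4 4 fell and 0 rose, and in the other knockdowns 0 passed. ARC, a neuronal and synaptic immediate early gene, was at 40 and 57 in shSMARCA4 against 144 and 148 (log2 change -1.59, SE 0.29, limma adjusted p = 0.0174). TRIB1, a pseudokinase that guides protein degradation, was at 748 and 791 against 1311 and 1550 (-0.89, limma adjusted p = 0.0253). CTGF and CYR61, which encode secreted matricellular proteins of the CCN family and are known YAP and SRF targets, were at 572 and 674 against 1266 and 1458 (-1.13, limma adjusted p = 0.0275) and at 408 and 334 against 678 and 978 (-1.14, limma adjusted p = 0.0302). These 4 genes thus fell in the libraries in which JUN rose. A limma unadjusted p under 0.05 was reached in shSMARCA4 by 10 of the 28 genes (1 higher, 9 lower) and by 16.3% of all rows. Without either shLUC library, or without the first shSMARCA4 library, 0 of 28 passed, and 1 passed without the second shSMARCA4 library. Over 20 alternatives the 4 passed in 17 (ARC), 16 (CTGF), 14 (TRIB1) and 14 (CYR61), with no change of direction.

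Counted without the threshold, the log2 change was above 0 for 8 of 28 genes in shSMARCA4, 15 in shKDM1A, 21 in shMAFK and 9 in shE2F6. Of all rows, 50.9%, 47.9%, 49.0% and 49.2% were above 0 in these knockdowns. The medians were -0.26, 0.07, 0.44 and -0.12 in that order, beside the medians of all rows given above. All later medians of lists keep that order. The 3 genes of the smallest p in shMAFK were ATF3, a stress-induced bZIP factor (938 and 809 against 309 and 640, limma adjusted p = 0.332), ID1, an inhibitor of helix-loop-helix factors (2208 and 2053 against 1108 and 1184, limma adjusted p = 0.36) and CYR61 (1513 and 1192, limma adjusted p = 0.378). In shKDM1A they were ATF3 (804 and 907, limma adjusted p = 0.341), IER3 (30 and 62 against 102 and 124, limma adjusted p = 0.345) and CTGF (2520 and 1802, limma adjusted p = 0.379). In shE2F6 2 genes had an unadjusted p under 0.05, ARC (289 and 220, limma adjusted p = 0.925) and GADD45G (27 and 10 against 46 and 114, limma adjusted p = 0.962).

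**Figure D3:**
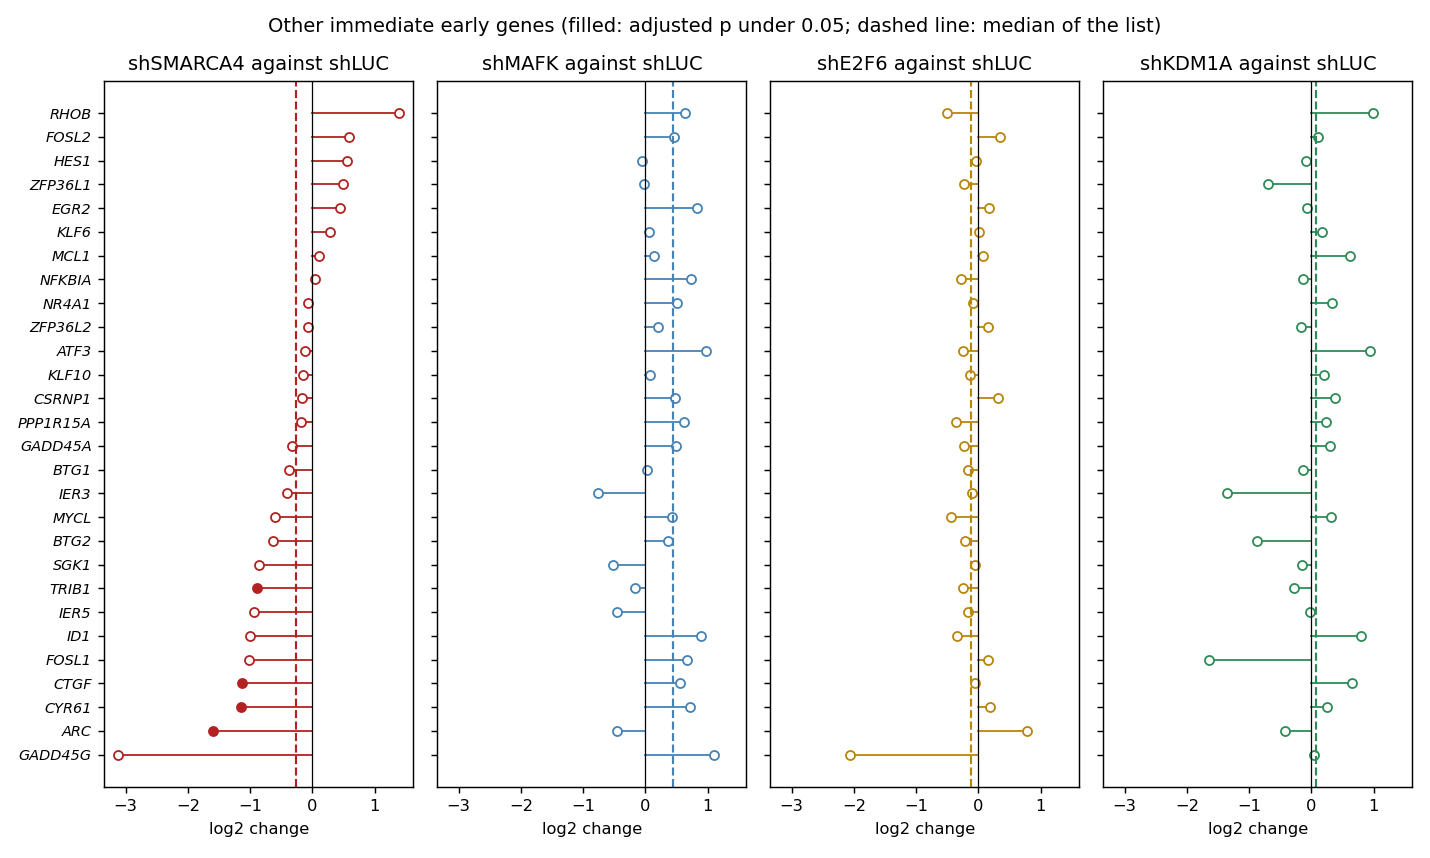
Log2 change against shLUC (horizontal axis) of the 28 other immediate early genes in each knockdown, ordered by the value in shSMARCA4, with the median of the list as a dashed line and filled points for a limma adjusted p under 0.05. The 4 filled points are TRIB1, CTGF, CYR61 and ARC in shSMARCA4. In shMAFK 21 of 28 genes lie above 0, beside 49.0% of all rows.

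All 26 genes of the list of upstream regulators, the kinases and transcription factors that act on immediate early genes, had a row. RPS6KA2, which encodes a ribosomal S6 kinase of the RSK family, fell in shSMARCA4 from 644 and 819 to 298 and 296 (-1.29 on the log2 scale, SE 0.20, limma adjusted p = 0.0105), a call lost without the second shLUC library or either shSMARCA4 library. SRF was at 1708 and 1406 in shSMARCA4 against 1928 and 2273 (-0.43, limma adjusted p = 0.276). In each other knockdown 0 of 26 passed, and the medians of the list were 0.09, -0.04, 0.03 and 0.03.

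Of 12 bZIP partners of FOS and JUN 8 had a row and 0 passed in each knockdown, with medians of 0.03, 0.09, 0.54 and 0.05. This list shares ATF3, FOSL1 and FOSL2 with the list of other immediate early genes. JDP2, a bZIP protein that dimerizes with c-Jun and represses AP-1, was at 50 and 318 in shLUC, 660 and 492 in shMAFK (log2 change 2.16, limma adjusted p = 0.387) and 810 and 494 in shKDM1A (2.31, limma adjusted p = 0.341). The wide gap between its controls stands beside these values.

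Of the MYC and MAX network 11 of 11 genes had a row and 0 passed in each knockdown. MAX, the partner of MYC and MYCN, was at 502 and 554 in shLUC and 462 and 592 in shSMARCA4. MXD4, which encodes a MAX partner that represses E-box genes, was at 401 and 404 in shMAFK and 398 and 430 in shKDM1A against 736 and 574 (-0.69 and -0.65, limma adjusted p = 0.238 and 0.291). MYCL, the third MYC family gene and also on the list of other immediate early genes, was at 566 and 372 in shSMARCA4 against 698 and 694 (-0.60, limma adjusted p = 0.228). The medians were 0.05, -0.10, 0.17 and 0.09. Of 17 regulators of MYC protein 17 had a row and 0 passed; in shSMARCA4 HUWE1, a ubiquitin ligase, was at 13159 and 18607 against 10534 and 10349 (limma adjusted p = 0.175), and USP28, a deubiquitinase, at 3025 and 3528 against 2394 and 2005 (limma adjusted p = 0.194). The medians of that list were -0.03, -0.02, -0.04 and 0.09.

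All 60 MYC-linked growth genes had a row, and 1 passed. SLC19A1, the reduced folate carrier, fell in shSMARCA4 from 4036 and 4613 to 2104 and 2012 (-1.07 on the log2 scale, SE 0.17, limma adjusted p = 0.0101), a call lost on leaving out any 1 library of shLUC or shSMARCA4. It was at 4036 and 4066 in shMAFK and 4750 and 4706 in shKDM1A. The medians of the 60 genes were -0.04, -0.03, 0.04 and 0.06, beside 0.01, -0.02, -0.00 and -0.00 over all rows. Of 12 heat shock genes, which respond to proteotoxic stress, 12 had a row and 0 passed, with medians of 0.05, -0.12, 0.22 and 0.13.

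Other lineage markers moved in shSMARCA4 beside JUN and MYCN. Of 8 ectoderm markers 4 had a row, and ZIC1 rose from 95 and 149 to 462 and 1004 (2.51 on the log2 scale, limma adjusted p = 0.0147), a call lost without either shLUC library or the second shSMARCA4 library. The other 3 ectoderm markers did not pass, with log2 changes of -0.37 (NES), -0.67 (OTX2) and -0.99 (TUBB3, unadjusted p = 0.0122), and the median of the 4 was -0.52. Of 9 trophoblast markers 2 had a row, and KRT7 fell from 218 and 296 to 30 and 44 (-2.77, limma adjusted p = 0.00463), a call lost without the second shLUC library. Summed, the ectoderm markers were at 11605 and 10290 in shLUC and 9407 and 6570 in shSMARCA4, and the trophoblast markers at 278 and 355 and at 86 and 80. Their part in the changes of JUN and MYCN was not tested.

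The rows outside the member list whose values ran most like each member were found by Pearson correlation of the log2 values over the 10 libraries, among 12606 gene rows with a mean of at least 100. The points share the 5 groups and the normalization, and the values are a description. JUN ran most like PDE5A (0.95), a cyclic GMP phosphodiesterase, ADAMTS3 (0.95) and GCFC2 (0.95). MYCN ran most like CYP2U1 (0.97), SPEG (0.96) and AIG1 (0.96). EGR1 ran most like PTAR1 (0.98), SESN3 (0.97) and DYRK2 (0.95), and FOS like XPOT (0.95), the tRNA exportin, LAYN (0.92) and RASSF3 (0.92). For JUND the nearest were COG4 (0.98), H2AFJ (0.97) and TESMIN (0.95), for IER2 NPEPL1 (0.95), GSTA4 (0.95) and IRF2BPL (0.94), for MYC AK3 (0.93), LZTS1 (0.91) and GRK2 (0.89), and for DUSP1 TMEM62 (0.93), CDC25C (0.90) and FP565260.2 (0.90).

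**Figure D4:**
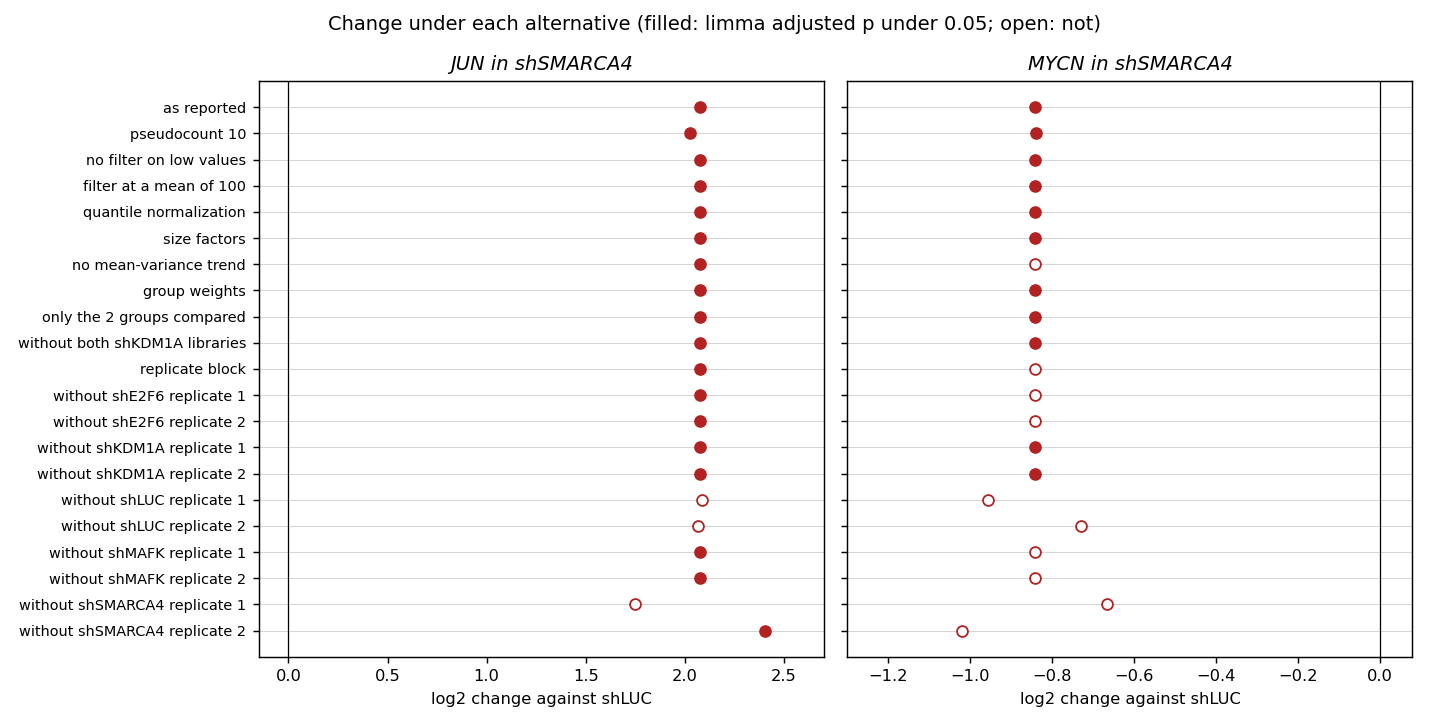
Log2 change against shLUC (horizontal axis) of JUN and MYCN in shSMARCA4 in the reported fit and in each of 20 alternatives (vertical axis), with filled points for a limma adjusted p under 0.05. The direction is the same throughout, but alternatives that change only the spread, the filter or other groups' libraries cannot move the log2 change. JUN is open in 3 alternatives and MYCN in 10.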

How the data were processed

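RNA-seq of 10 libraries in 5 groups was read from 1 deposited table. Its values were taken as scores: normalized whole numbers that the authors deposited as normalized tag counts, per the file headers, with equal medians and nearly equal totals (range 0.0821%) and the same value at 80.3% of ranks. How they were normalized is not given in the sources used here. A shared value at most ranks is the pattern that quantile normalization leaves. Under the quantile alternative JUN and MYCN in shSMARCA4 stayed at 2.08 and -0.84, so it was a weak check for them. STAR, STARsolo and hg38 are named in the submitters' processing notes, without versions. Depth is unknown, so no interval that needs it is given. Groups and replicate numbers came from the sample titles, columns were matched by the sample descriptions, and 0 columns were unmapped.

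limma 3.58.1 in R 4.3.3 (lmFit, eBayes with a mean-variance trend) was fitted to log2(value + 1) of all 14785 rows with a mean of at least 10 (0 rows removed), in 1 fit of 10 libraries with 5 residual degrees of freedom. p-values are two-sided and were adjusted by Benjamini-Hochberg over all rows, and a call is an adjusted p under 0.05. An exact permutation test of 2 against 2 libraries cannot go below p = 0.333 and was not used. The fit was tested on simulated data. Tables were made with Python 3.11.15, pandas 2.3.3 and numpy 2.4.6, and figures with matplotlib 3.10.9. The libraries' replicate numbers are shared as numbers only, and the block on them was an alternative. Other alternatives were a pseudocount of 10, no filter or a mean of 100, quantile normalization, size factors, no trend, group weights, the 2 groups alone, no shKDM1A libraries, and leaving out each library. The same alternatives for the count over the other immediate early genes were added after seeing the data.

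The members and 12 gene lists were chosen with earlier results of these data known. Named genes are all members, list genes past the threshold or else up to 3 of the smallest p, the 3 rows most like each member, and the 4 targets. MAX and SRF were named for their roles, after their values were seen. Positions are GENCODE release 29 on GRCh38 and promoter sequences RefSeq GRCh38.p14.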

Additional observations from a re-analysis of the deposited data

How the results depend on the processing

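Of the 32 log2 changes of the 8 genes against shLUC, 22 kept their direction under every alternative that could be run and 10 reversed, each on leaving out 1 library. Alternatives that change only the spread, the filter or the libraries of other groups cannot move a log2 change, so they did not test its direction. When 1 library is left out, the lone library of its group is assumed to vary like the others. Of the 8 genes, 2 passed in shSMARCA4; 1 passed without the mean-variance trend, 1 with the replicate number as a block, and 0 to 2 on leaving out a library (0 without either shLUC library or the first shSMARCA4 library). The call that the replicate block changed among the 8 genes against shLUC was that of MYCN in shSMARCA4. With the block 6 of the other immediate early genes passed there. The deviations of same-numbered libraries correlated at -0.05 to 0.337, with the highest value between shSMARCA4 and shE2F6. The numbers were not taken as pairs in the reported fit. In shKDM1A 0 genes passed and 0 to 3 on leaving out a library, with 3 without its second library. The F-test among knockdowns passed for 2 genes, for 0 without the trend, and for 0 to 5 on leaving out a library, with 5 without the second shKDM1A library; it could not be run with the 2 groups alone, nor over 4 knockdowns without the shKDM1A libraries. Of the other immediate early genes, 4 passed in shSMARCA4, and 7 with group weights, 7 with the 2 groups alone, 7 without both shKDM1A libraries and 0 to 7 on leaving out a library; the 7 include SGK1 and ID1 in each of the first 3 fits. In shMAFK 0 passed and 1 with group weights; in shKDM1A 0 passed and 0 to 6 on leaving out a library, with 6 without its second. The cause was not tested in any of these cases. The reversed changes ranged over the left-out libraries as follows. In shE2F6 JUND ran from -0.21 to 0.31 and EGR1 from -1.27 to 0.35. In shKDM1A EGR1 ran from -1.91 to 0.60, DUSP1 from -0.31 to 0.47 and MYC from -0.49 to 0.55. In shMAFK IER2 ran from -0.054 to 0.27, DUSP1 from -0.085 to 0.42, MYC from -0.33 to 0.27 and MYCN from -0.12 to 0.10. In shSMARCA4 DUSP1 ran from -0.54 to 0.18. FOS had no value with the filter at a mean of 100.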

Other observations

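EGR1 was lower and DUSP1 higher in the library numbered 1 than in the library numbered 2 in 5 of 5 groups. Over all rows, 11.9% had the same direction between the numbered libraries in 5 groups. Whether the replicate numbers mark a batch was not tested. EGR1 was at 42 in the first shKDM1A library and 244 in the second, and DUSP1 at 162 and 94. JUN and IER2 were higher in library 1 in 4 of 5 groups, and FOS, MYC and MYCN in 3 of 5.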
